A study of Mus musculus with 9 samples.

Results

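The genes described here carry a cell through mitosis: 50 genes for mitotic kinases and cyclins, kinetochores, spindle motors, condensin and the machinery of mitotic exit and cytokinesis. They were found by name, as every row of the deposited array table whose platform annotation gives a single gene symbol from the list, which gave 117 of 45037 probe sets (rows) that are not controls, with 1 to 5 rows for a gene. Whole mouse colons were profiled on 9 Affymetrix arrays. In 5 of them, called mutant, the animals carried Rosa26-CreERT2, a tamoxifen-dependent Cre recombinase made in all cells, together with Ptch1fl/fl, whose exons 8 and 9 the Cre removes, and in 4, called wildtype, the same Cre with Ptch1+/+. Both groups received 1 mg tamoxifen on each of 5 days and were killed on day 12, so the Cre and the drug are shared by all 9 samples. The background of all mice mixed C57BL/6 with Balb/c, and their ages are not stated in the labels. Ptch1 is the receptor that keeps Hedgehog signalling off when no ligand is bound, and its loss was meant to switch the pathway on throughout the body. Nothing in the labels says that each sample was a separate animal, so the p-values rest on the scatter among 9 samples, part of which may be technical.

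In mitosis the kinase Cdk1, bound to its cyclins, starts chromosome condensation and spindle assembly, kinetochores couple each chromosome to microtubules, and a checkpoint holds the cell until every chromosome is attached. The anaphase-promoting complex then marks cyclins and securin for destruction, the chromatids part and the cell divides. In the colon such cells lie mostly in the lower crypt, where stem cells and their daughters divide, and dividing immune and stromal cells add to whole-tissue RNA. In whole tissue, a different number of cells in mitosis and a different amount of RNA per cell cannot be told apart.

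Many mitotic genes are known to share a promoter layout in which CCAAT boxes, bound by NF-Y, lie shortly before a cell cycle homology region (CHR), the element through which the DREAM and MuvB complexes hold these genes down outside mitosis and raise them within it. To show this layout, 1 promoter is given for each mitotic step: that of the gene with the strongest difference among those whose RefSeq window (GRCm38.p6) holds a CHR wholly before the annotated start. Each line is the 250 bases before the start, 5′ to 3′ on the gene's strand, with CHR matches (TTTGAA or TTCGAA, or TTCAAA on the other strand) and CCAAT boxes (CCAAT or ATTGG) in capitals. The stretches are Cdk1 (chr10:69352913-69353162, minus strand), Bub1b (chr2:118597961-118598210, plus strand), Kif11 (chr19:37376132-37376381, plus strand), Ncapg (chr5:45669675-45669924, plus strand) and Prc1 (chr7:80294226-80294475, plus strand).
Cdk1: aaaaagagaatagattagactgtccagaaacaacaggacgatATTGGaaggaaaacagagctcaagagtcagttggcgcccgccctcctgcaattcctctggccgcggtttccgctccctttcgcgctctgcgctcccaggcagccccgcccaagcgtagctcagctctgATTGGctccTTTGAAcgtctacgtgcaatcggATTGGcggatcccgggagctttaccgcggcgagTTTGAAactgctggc
Bub1b: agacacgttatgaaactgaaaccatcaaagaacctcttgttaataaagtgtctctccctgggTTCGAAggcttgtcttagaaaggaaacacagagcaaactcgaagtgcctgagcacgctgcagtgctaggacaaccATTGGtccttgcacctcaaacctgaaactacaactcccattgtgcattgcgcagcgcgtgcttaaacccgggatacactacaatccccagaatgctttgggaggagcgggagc
Kif11: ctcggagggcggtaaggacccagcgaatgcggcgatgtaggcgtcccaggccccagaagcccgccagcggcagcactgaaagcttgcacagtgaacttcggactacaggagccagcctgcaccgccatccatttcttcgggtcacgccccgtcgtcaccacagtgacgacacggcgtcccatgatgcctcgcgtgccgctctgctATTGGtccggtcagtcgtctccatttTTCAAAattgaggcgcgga
Ncapg: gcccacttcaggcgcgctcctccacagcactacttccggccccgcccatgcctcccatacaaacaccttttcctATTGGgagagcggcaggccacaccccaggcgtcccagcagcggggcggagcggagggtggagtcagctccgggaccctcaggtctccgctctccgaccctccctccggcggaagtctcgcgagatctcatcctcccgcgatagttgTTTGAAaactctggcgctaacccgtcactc
Prc1: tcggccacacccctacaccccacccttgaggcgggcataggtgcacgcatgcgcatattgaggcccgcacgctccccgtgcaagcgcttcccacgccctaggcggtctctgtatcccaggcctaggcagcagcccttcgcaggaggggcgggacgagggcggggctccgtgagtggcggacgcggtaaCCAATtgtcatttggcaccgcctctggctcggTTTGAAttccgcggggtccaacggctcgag

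In Cdk1 a CCAAT box lay 48 bases and a CHR 15 bases before the start, in Kif11 45 and 19 bases, and in Prc1 62 and 30 bases. A further CCAAT box and CHR pair stood in Cdk1 at 80 and 71 bases. In Ncapg the CHR was near the start, at 30 bases, and the CCAAT box far from it, at 176 bases. In Bub1b the CHR before the start lay at 188 bases and the CCAAT box at 113 bases, and a further CHR match lay after the start.

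A RefSeq window of 300 bases (250 before and 50 after the start) was matched for 41 of the 50 genes. A CHR match was present in 33 of the 41 (80.5%) and in 21.6% of 26984 other genes with a window. These other genes were taken whether or not the array names them, unlike the other genes of the array comparisons below. Within 50 bases of the start it was present in 30 of the 41 (73.2%), against 6.01% of other genes. CCAAT boxes were found in 31 of the 41 (75.6%, against 41.0%), both motifs in 29 (70.7%, against 8.52%), and a CCAAT box 20 to 45 bases before a CHR in 18 (43.9%, against 1.18%). The motifs can share a base where they abut, and matches overlapped in 1 of the 41 genes. Among the 30 genes with a window and at least 1 row past the test described next, 26 held a CHR (86.7%). Among the 11 with a window and no such row, 7 did (63.6%). A CHR within 50 bases of the start was held by 25 of the 30 (83.3%) and 5 of the 11 (45.5%). The layout with a CCAAT box 20 to 45 bases before a CHR was about as frequent in both. It was held by 13 of the 30 (43.3%) and 5 of the 11 (45.5%). None of these comparisons was tested. These matches describe letters in the window, and binding was not measured.

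**Figure D1:**
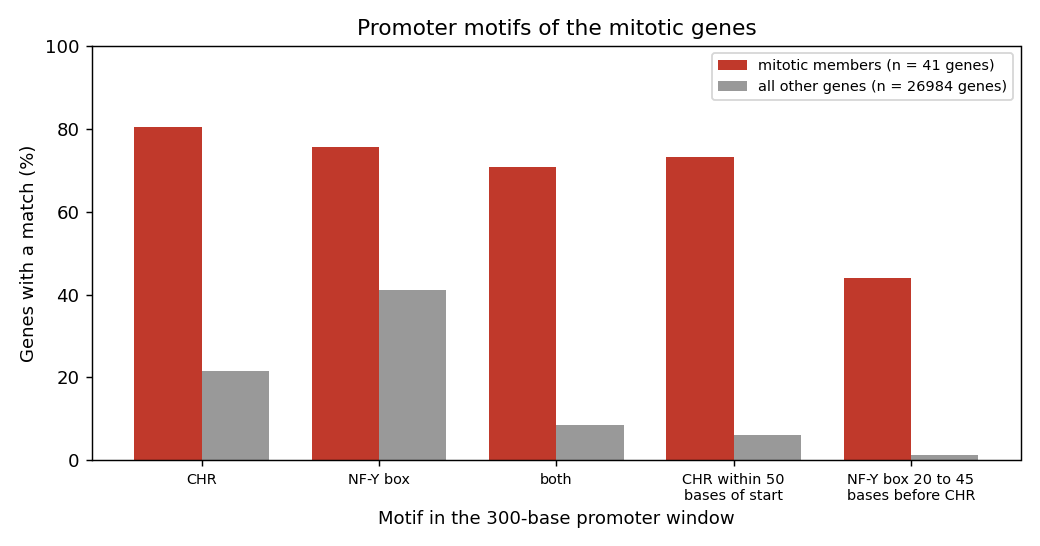
Share of genes (%, vertical axis) whose 300-base promoter window holds each motif or layout (horizontal axis), for 41 mitotic genes (red) and 26984 other genes (grey), where NF-Y box is the CCAAT motif. A CHR was found in 80.5% of the mitotic genes and 21.6% of the others, and an NF-Y box 20 to 45 bases before a CHR in 43.9% and 1.18%.

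Rows that carry the name of the same gene share how strongly the 2 groups differed but not which group was higher, and hardly the level of signal, so no direction, fold or level is given for any gene here. The probe set IDs may have been reordered against the values before deposit, which was not tested. Each rank, array position and probe set type below therefore belongs to the row that carries a name, and may not belong to that gene's transcript. Strength is the absolute moderated t of limma for mutant against wildtype on log2(intensity + 16), the difference between group means over its error, and the percentile of a row is its place among all 45037 rows, where 100 is the strongest. A row passed when its p-value, adjusted by Benjamini-Hochberg over all 45037 rows, was under 0.05. Among the rows of the mitotic genes that passed, 27 were higher and 24 lower in mutants, and in rows of other genes 55.6% were higher. Of 17 pairs of passed rows that name the same mitotic gene, 7 had the same sign (41.2%), and of 338 such pairs of other genes 165 did (48.8%).

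Rows of the mitotic genes stood high in the order of strength. Of 117 rows 51 passed (43.6%), against 5.06% of the 34828 rows that name other genes and 4.51% of all rows. The median percentile was 93.7 (quartiles 74.5 and 98.3), against 52.1 for rows of other genes (26.3 and 77.1). The median absolute t was 3.73, against 1.06. All mutant arrays lay on one side of all wildtype arrays in 63 rows (53.8%), against 9.63% of rows of other genes. This held for 49 of the 51 rows that passed, and likewise for 1697 of the 1764 passed rows of other genes. The exceptions among the mitotic rows were the passed rows of Ndc80 and Cdc20. The unadjusted p was under 0.05 in 84 rows (71.8%, against 20.9%). The tail of weak rows was thinner too, with 18 rows (15.4%) under percentile 50, against 47.9% of rows of other genes. The 50 genes were chosen with earlier results of these data known, so these shares describe them and are no test of the list.

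**Figure D2:**
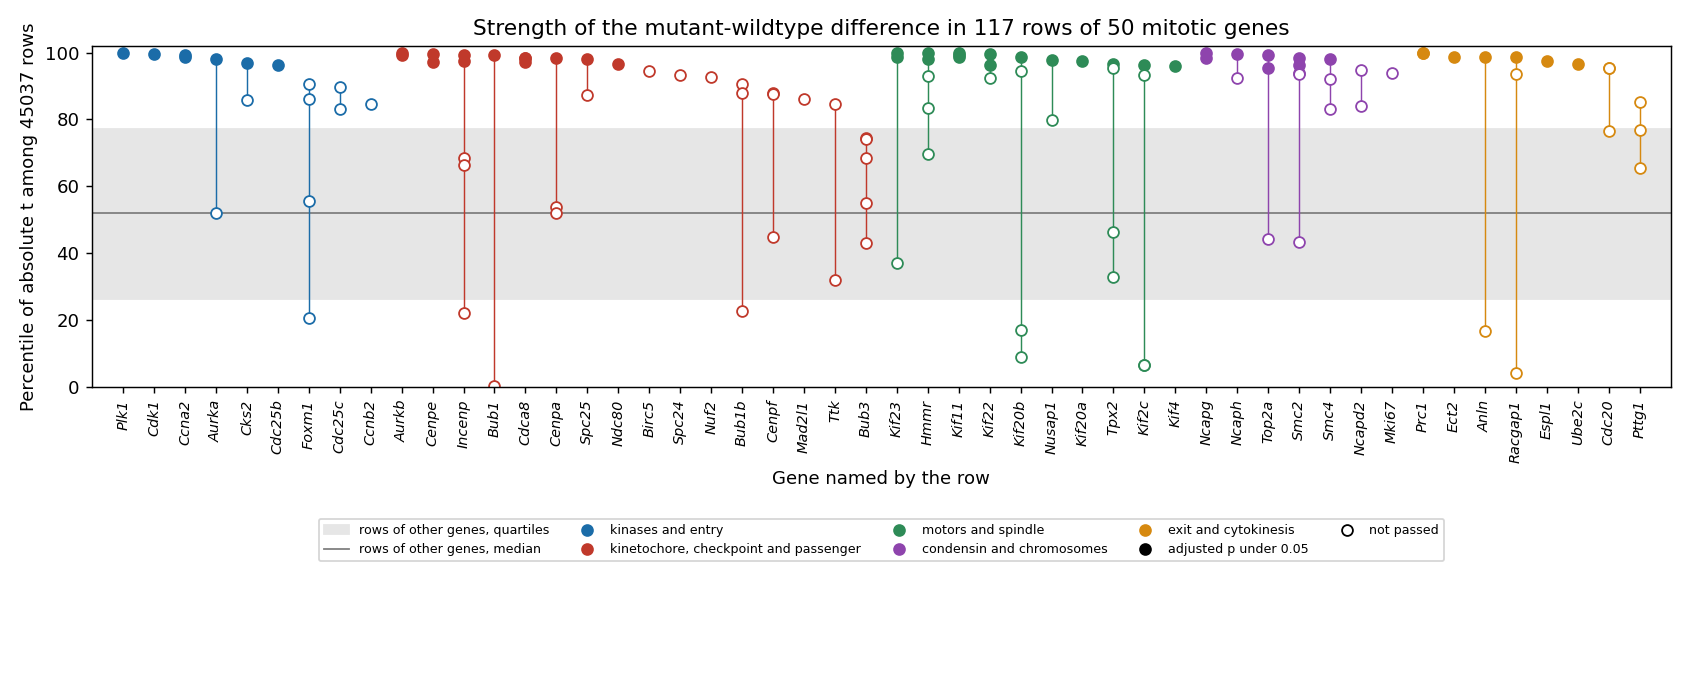
Percentile of the absolute t of each row among 45037 rows (vertical axis) for the 50 mitotic genes (horizontal axis, coloured by step), with filled points for rows with an adjusted p under 0.05, open points for the others, and lines joining the rows of a gene. The grey band spans the quartiles of rows of other genes (26.3 to 77.1, median line 52.1), and most mitotic rows lie above it, with a median of 93.7.

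By gene, 36 of 50 had at least 1 row that passed, against 8.26% of 18143 other genes. A gene with more rows has more chances to pass, so genes were also set against others with as many rows. Of 15 mitotic genes with 1 row 9 passed, against 5.05% of other genes with 1 row. Of 15 with 2 rows 12 had a passed row (other genes 8.59%), and of 20 with 3 or more rows 15 did (other genes 14.7%). In 7 of the 35 genes with several rows every row passed, namely Ccna2, Cenpe, Aurkb, Cdca8, Kif11, Ncapg and Prc1. Some but not all rows passed in 20 and none in 8. Other genes were not counted in this way, so these 3 counts have no background beside them.

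The kinases, cyclins and their regulators that bring a cell into mitosis passed in 7 of 16 rows (43.8%, background 5.06%), naming 6 of 9 genes (other genes 8.26%). The median percentile of the 16 rows was 90.1. Plk1, a kinase needed for centrosome maturation and spindle assembly, had the strongest row of the group, at rank 16 of 45037 (absolute t 11, adjusted p = 0.00348). To show the arrays behind a row, values are given as deviations from the row's mean in units of the row's SD over the 9 arrays, turned so that the mutant mean is positive, which hides the direction. In the Plk1 row, mutants 1 to 5 lay at 1.07, 0.81, 1.17, 0.57 and 0.45 and wildtypes 1 to 4 at -1.01, -1.32, -0.89 and -0.86. The groups did not overlap, and the gap between the nearest mutant and wildtype arrays took up 52.6% of the row's whole range.

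Cdk1, the kinase that drives entry into mitosis, had a single row, at rank 183 (absolute t 7.08, adjusted p = 0.0123). Its mutants lay at 0.26, 0.92, 1.47, 0.76 and 0.49 and its wildtypes at -1.18, -0.51, -1.02 and -1.19. Mutant 1 and wildtype 2 came nearest to each other, with a gap of 29.1% of the range. Both rows of Ccna2, the cyclin of S phase and early mitosis, passed (smaller adjusted p = 0.0139). So did the only row of the phosphatase gene Cdc25b, which activates Cdk1 (0.0414), 1 of 2 rows of the spindle pole kinase Aurka (0.025) and 1 of 2 rows of Cks2, a small subunit that binds cyclin-dependent kinases (0.0368). No row passed for the mitotic cyclin Ccnb2 (1 row, adjusted p = 0.199), the phosphatase Cdc25c (2 rows, smallest 0.123) or Foxm1 (4 rows, smallest 0.109), a transcription factor of mitotic genes. The Ccnb2 row stood at percentile 84.7, the Cdc25c rows at 89.7 and 83.2 and the Foxm1 rows at 90.5, 86.2, 55.7 and 20.7.

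The kinetochore, checkpoint and chromosomal passenger genes were the largest group and had the lowest share, with 13 of 37 rows passed (35.1%, background 5.06%) and a median percentile of 87.9. The shares differed within it, by a division made after the values were seen. The chromosomal passenger complex, which corrects faulty attachments, passed in 7 of 11 rows, with a median percentile of 97.6. Structural kinetochore genes passed in 5 of 13 rows, with a median of 92.8. Genes of the spindle checkpoint passed in 1 of 13 rows (7.69%), near the background of 5.06%, with a median of 74.2. Of these rows 5 had an unadjusted p under 0.05 by limma (38.5%, against 20.9% of rows of other genes). These differences between divisions were not tested.

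Aurkb, the kinase of the passenger complex, passed in both rows. In its stronger row, at rank 97 (absolute t 7.87, adjusted p = 0.0099), mutants lay at 0.22, 0.86, 1.25, 0.78 and 0.86 and wildtypes at -0.53, -0.97, -1.24 and -1.23. The groups did not overlap, with mutant 1 and wildtype 1 nearest. Cdca8, which encodes borealin, passed in all 3 rows (adjusted p from 0.0228 to 0.035). Incenp, the scaffold of the complex, passed in 2 of 5 rows (0.0148 and 0.0303), and its other 3 rows fell to percentiles of 68.4, 66.3 and 22.1. Birc5, which encodes survivin, had 1 row that did not pass (adjusted p = 0.0603, percentile 94.6), although its groups did not overlap.

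Cenpe, a kinesin that carries chromosomes to the spindle equator, passed in both rows. The stronger stood at rank 221 (absolute t 6.88, adjusted p = 0.0127), with mutants at 0.91, 0.79, 1.36, 0.12 and 0.73 and wildtypes at -0.48, -1.09, -1.13 and -1.2. Mutant 4 and wildtype 1 lay nearest to each other, and the groups did not overlap. Of the NDC80 complex, which grips microtubules, Ndc80 (adjusted p = 0.04) and 1 of 2 rows of Spc25 (0.0252) passed, while the single rows of Nuf2 (0.0814) and Spc24 (0.0767) did not. Cenpa, the histone H3 variant that marks centromeres, passed in 1 of 3 rows (0.0237). The outer kinetochore gene Cenpf passed in none of its 3 rows (smallest adjusted p = 0.149, unadjusted p under 0.05 in 2 of them).

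Of the checkpoint genes, only the kinase gene Bub1 had a passed row, 1 of 2 (adjusted p = 0.0157, percentile 99.3), and its other row was among the weakest on the array, at percentile 0.413. Bub1b, the checkpoint inhibitor BubR1, had 3 rows with a smallest adjusted p of 0.106. Mad2l1, which forms the inhibitor with it, had 1 row at 0.177, and the checkpoint kinase Ttk had 2 rows with a smallest value of 0.199. Bub3, the most weakly placed of the 50 genes by its best row, had 5 rows between percentiles 43.1 and 74.5, which all lie within the quartiles of rows of other genes.

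Motor and spindle genes passed in 15 of 30 rows (50%, background 5.06%). Each of the 10 genes had at least 1 passed row, against 8.26% of other genes and 14.7% of those with 3 or more rows. The median percentile was 95.7. The 7 kinesins with a Kif symbol, motors that walk along or depolymerise microtubules, passed in 11 of 19 rows (57.9%). The kinesin Cenpe was counted with the kinetochore genes. Kif23, a motor of the central spindle, passed in 2 of 3 rows, and its weakest row was at percentile 37.1. The strongest Kif23 row stood at rank 19 (absolute t 10.6, adjusted p = 0.00383), with mutants at 0.86, 0.87, 0.83, 1.07 and 0.53 and wildtypes at -0.98, -0.88, -1.24 and -1.06. Its 9 arrays formed a pair of tight groups, and the gap took up 61% of the range, the widest of the 10 rows shown in this way. Kif11, the motor that pushes spindle poles apart, passed in all 3 rows (adjusted p from 0.00713 to 0.0225), and Kif22, which moves chromosome arms, in 2 of 3 (0.0123 and 0.0427).

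Hmmr, a spindle pole protein, passed in 2 of 5 rows. Its stronger row was at rank 26 (absolute t 10.2, adjusted p = 0.00405), with mutants at 0.79, 1.23, 1.05, 0.48 and 0.52 and wildtypes at -1.19, -1.16, -0.79 and -0.93. Wildtype 1 was the array farthest from the mutants in this row. The other motors passed through a single row each: Kif20a (1 of 1, adjusted p = 0.0317), Kif4 (1 of 1, 0.0453), Kif20b (1 of 4, 0.0193) and the depolymerase Kif2c (1 of 4, 0.0442). The spindle assembly factor Tpx2 passed in 1 of 4 rows (0.0397) and the microtubule bundler Nusap1 in 1 of 2 (0.028). This group also held weak rows, though fewer than the background, with 7 of 30 under percentile 50 (23.3%, against 47.9% of rows of other genes). Among them were rows of Kif2c at percentile 6.46 and of Kif20b at 8.81.

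Condensin and chromosome genes passed in 8 of 18 rows (44.4%, background 5.06%), naming 5 of 7 genes (other genes 8.26%), with a median percentile of 94.5. Of their 18 rows 16 had an unadjusted p under 0.05 (88.9%, against 20.9% of rows of other genes). Ncapg, a subunit of condensin I, passed in both rows, the stronger at rank 112 (absolute t 7.62, adjusted p = 0.0111), with mutants at 0.75, 0.95, 0.79, 1.21 and 0.38 and wildtypes at -0.84, -0.9, -1.08 and -1.27. Ncaph, the kleisin that closes the condensin I ring, passed in 1 of 2 rows, and the other had an adjusted p of 0.0868. The passed Ncaph row was at rank 126 (absolute t 7.47, adjusted p = 0.0113), with mutants at 1.15, 0.77, 0.48, 1 and 0.69 and wildtypes at -1.18, -0.77, -1.3 and -0.85. Neither of the Ncapg and Ncaph rows shown by array had groups that overlapped, and the gaps were 49.6% and 51% of the range. The ATPase cores Smc2 (2 of 5 rows, smallest adjusted p = 0.0228) and Smc4 (1 of 3, 0.0266) and the topoisomerase Top2a, which untangles sister chromatids (2 of 3, 0.0141), passed as well. Ncapd2 (2 rows, smallest adjusted p = 0.0568) and the proliferation marker Mki67 (1 row, 0.0687) did not, although the Mki67 groups did not overlap.

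Genes of anaphase, mitotic exit and cytokinesis passed in 8 of 16 rows (50%, background 5.06%), naming 7 of 8 genes (other genes 8.26%), with a median percentile of 95.4. Prc1, which bundles the microtubules of the central spindle, had the strongest mitotic row of all, at rank 10 (absolute t 12.9, adjusted p = 0.00142). Its mutants lay at 0.9, 0.86, 0.73, 0.51 and 1.12 and its wildtypes at -0.73, -1.27, -1.06 and -1.07. The second Prc1 row was at rank 38 (absolute t 9.28, adjusted p = 0.00615), with mutants at 0.94, 0.68, 1.27, 0.83 and 0.34 and wildtypes at -0.8, -1.05, -1.26 and -0.94. Mutant 5 was the highest mutant in the first of these rows and the lowest in the second, so the arrays were ordered differently within the groups of 2 rows with 1 name.

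The regulators of cleavage passed through a single row each, with Ect2, which activates RhoA at the equator, at an adjusted p of 0.0211 (1 of 1), its partner Racgap1 at 0.0225 (1 of 3) and the furrow scaffold Anln at 0.0225 (1 of 2). Espl1, the separase that cuts cohesin, passed in its only row (0.0304), and so did Ube2c, the ubiquitin-conjugating enzyme of the anaphase-promoting complex (0.0396). Its activator Cdc20 passed in 1 of 3 rows, just under the threshold (0.0497). Pttg1, the securin that restrains separase, passed in none of its 3 rows (smallest adjusted p = 0.19).

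Over the 51 passed rows, the median position of the mutants was 0.75, 0.79, 0.83, 0.74 and 0.64, and that of the wildtypes -0.57, -0.91, -1.19 and -1.07. Wildtype 1 thus lay closest to the mutants, and in 28 of the 51 rows (54.9%) it was the wildtype nearest to them. In 1764 passed rows of other genes the medians were close to these, with wildtype 1 at -0.61 and nearest to the mutants in 50.6% of rows. Turning each row fixes the sign of the group means, so only the order within a group carries information here.

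**Figure D3:**
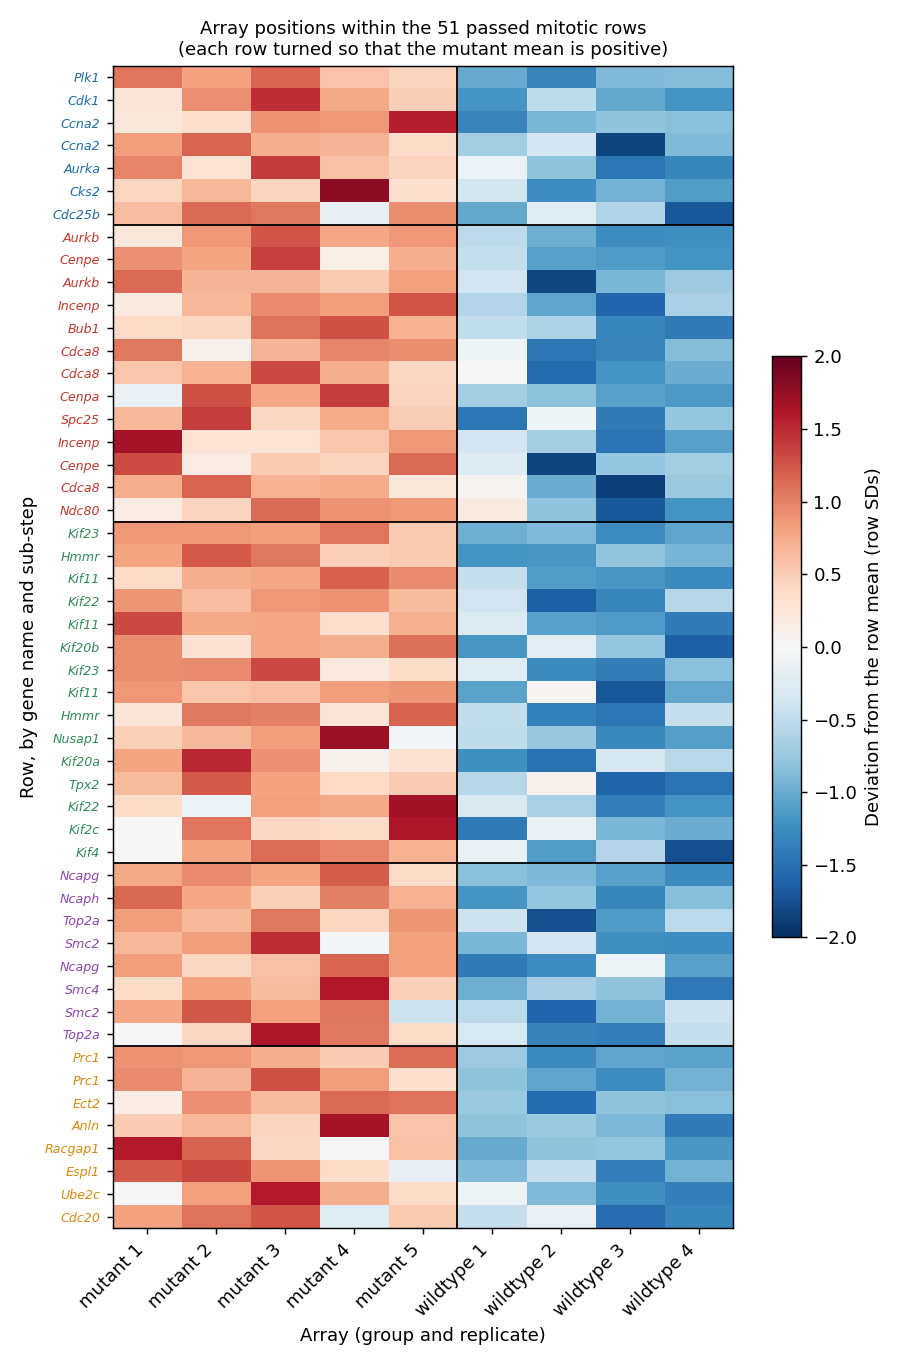
Position of each array (horizontal axis) within the 51 passed rows of mitotic genes (vertical axis, named and coloured by step), as the deviation from the row mean in row SDs, with each row turned so that the mutant mean is positive (red above, blue below the row mean). Wildtype 1 is the palest wildtype column, with a median of -0.57 against -0.91 to -1.19 for wildtypes 2 to 4.

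How far rows moved together within the groups was read without sign. After the group means were taken off, the median absolute correlation over the 9 arrays was 0.306 in 1258 pairs of passed rows of different mitotic genes, and 0.307 in pairs of passed rows of different other genes. In the 17 pairs of passed rows that name the same mitotic gene it was 0.146, and in 338 such pairs of other genes 0.291. These pairs share the same 9 arrays, and the values are a description.

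The rows differ in how their probes were designed, which the list did not use. Probe sets whose ID ends in _a_at match several transcripts of a gene. Of those naming mitotic genes, 15 of 23 passed (65.2%, against 7.02% of such rows of other genes). Plain _at rows passed in 26 of 69 (37.7%, against 4.6%), _s_at rows, which can match more than 1 gene, in 5 of 11 (45.5%, against 7.58%), and _x_at rows, which may cross-hybridise, in 5 of 14 (35.7%, against 5.04%). Without _s_at and _x_at rows, an alternative chosen after the data were seen, 40 of 92 rows passed (43.5%, against 4.67%).

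Further genes of mitosis were listed by step to set the 50 in their pathway, 155 of 158 being matched to 362 rows, 7 of them through an older symbol. Of these rows 43 passed (11.9%, background 5.06%), and the median percentile was 70.3, against 52.1. The anaphase-promoting complex, exit and cytokinesis list passed in 12 of 79 rows, led by Depdc1a (adjusted p = 0.0098), with the phosphatase Cdc14a (0.0122) and the complex's inhibitor Fbxo5 (0.0364) also past. Kinetochore and checkpoint genes passed in 7 of 72 rows, among them the centromere protector Sgo1 (0.018) and the kinetochore scaffold Knl1 (0.0344 and 0.0478). Motor and spindle genes passed in 7 of 66, among them Ckap2l (0.0135 and 0.0225), Dlgap5 (0.0208) and the motor Kif18b (0.0213). Kinase and entry genes passed in 5 of 47, led by Pkmyt1 (0.0225), the kinase that holds Cdk1 back. Condensin, cohesin and chromosome genes passed in 7 of 59, led by the cohesin acetyltransferase Esco2 (0.0289). The DREAM and MuvB regulators of mitotic promoters passed in 5 of 39 rows, naming Lin9 (0.0249), Nfya (0.0289), Tfdp2 (0.0357 and 0.0387) and Dyrk1a (0.0479).

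Genes of DNA replication and S phase, the preceding part of the cycle, passed in 9 of 92 rows of 43 genes (9.78%, background 5.06%), with a median percentile of 78.3, against 52.1 for rows of other genes. They included Dbf4, the activator of the replication kinase (adjusted p = 0.0225), Mcm3 of the replicative helicase (0.0313) and the sliding clamp Pcna (0.0459). Of the 92 rows 0 lay in the strongest 1% of all rows, against 18 of the 117 mitotic rows (15.4%) and 1.1% of rows of other genes. The strongest 10% held 28.3% of the 92 rows, against 59% of the mitotic rows and 11.1% of rows of other genes. By limma, 42 of the 92 rows had an unadjusted p under 0.05 (45.7%), against 71.8% of the mitotic rows and 20.9% of rows of other genes. The difference between these lists was not tested, and the 50 mitotic genes were the ones chosen with results known.

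**Figure D4:**
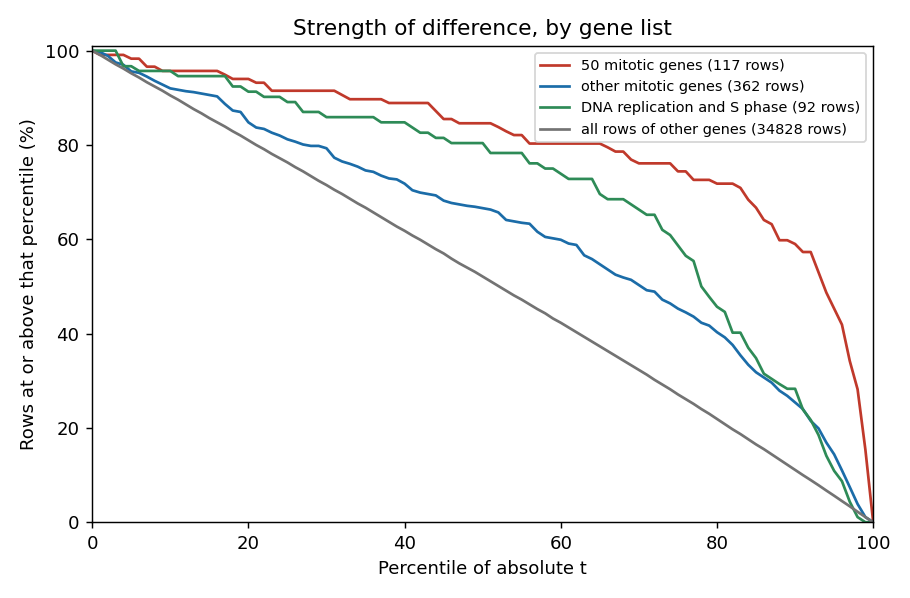
Share of rows (%, vertical axis) at or above each percentile of the absolute t (horizontal axis) for 117 rows of the 50 mitotic genes, 362 rows of other mitotic genes, 92 rows of replication and S phase genes and 34828 rows of other genes. The line of the 50 genes runs highest over most of the range, with a median percentile of 93.7, against 78.3 for S phase, 70.3 for other mitotic genes and 52.1 for rows of other genes.

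Marker rows of the cell types a whole colon holds were read for strength alone, beside the shares of 5.06% past the adjusted threshold and 20.9% at an unadjusted p under 0.05 in rows that name genes outside the 50. Since levels are not tied to names, their summed levels are not given and the tissue label could not be checked with them. Lymphocyte markers passed in 0 of 16 rows by limma (1 at an unadjusted p under 0.05, 6.25%, median percentile 34.6). Smooth muscle markers passed in 0 of 12, but 5 had an unadjusted p under 0.05 (41.7%, against 20.9%), with a median percentile of 67.4. Epithelial markers passed in 2 of 15 rows, both of Cdx2, an intestinal transcription factor (adjusted p = 0.00522 and 0.0279). Of the 15 rows 5 had an unadjusted p under 0.05 (33.3%), and the median percentile was 72.2. Fibroblast markers passed in 1 of 13 rows, of Lum (0.0269), the only 1 at an unadjusted p under 0.05, with a median percentile of 62.4. The part of these cell types in the mitotic result was not tested.

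Array numbers in the sample titles were 1, 3, 4, 6 and 7 for mutants and 5, 8, 9 and 10 for wildtypes, so number and group were partly tied. With array number as a covariate 2 of 117 mitotic rows passed, against 0.0718% of rows of other genes. They were a row of Ccna2 (adjusted p = 0.0204) and the stronger row of Prc1 (0.0336), and Plk1 was at 0.0654. In that fit 64 mitotic rows (54.7%) had an unadjusted p under 0.05, against 14.2% of rows of other genes, and their median percentile was 90.7, against 51.3. The calls also rested on single arrays. Of 117 rows 17 passed without wildtype 4, 18 without wildtype 3, 23 without mutant 2 and 25 without mutant 3, while the share among rows of other genes fell to 0.97%, 0.939%, 1.71% and 1.69%. In the other leave-outs between 35 and 48 rows passed.

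A core of 16 rows, naming 13 genes, passed with all arrays and without each of the 9 arrays in turn (13.7% of the mitotic rows, against 0.732% of rows of other genes). They were the rows of Ccna2, Cdk1, Plk1, Cenpe, Incenp, Hmmr, Kif22, Kif23, Ncapg and Ncaph, with 1 row each, and of Aurkb, Kif11 and Prc1, with 2 rows each. All steps of mitosis were represented among them. The highest adjusted p over these 9 fits was 0.0132 for the stronger Prc1 row, 0.0176 for Plk1 and 0.0496 for the weaker of the 2 Kif11 rows.

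**Figure D5:**
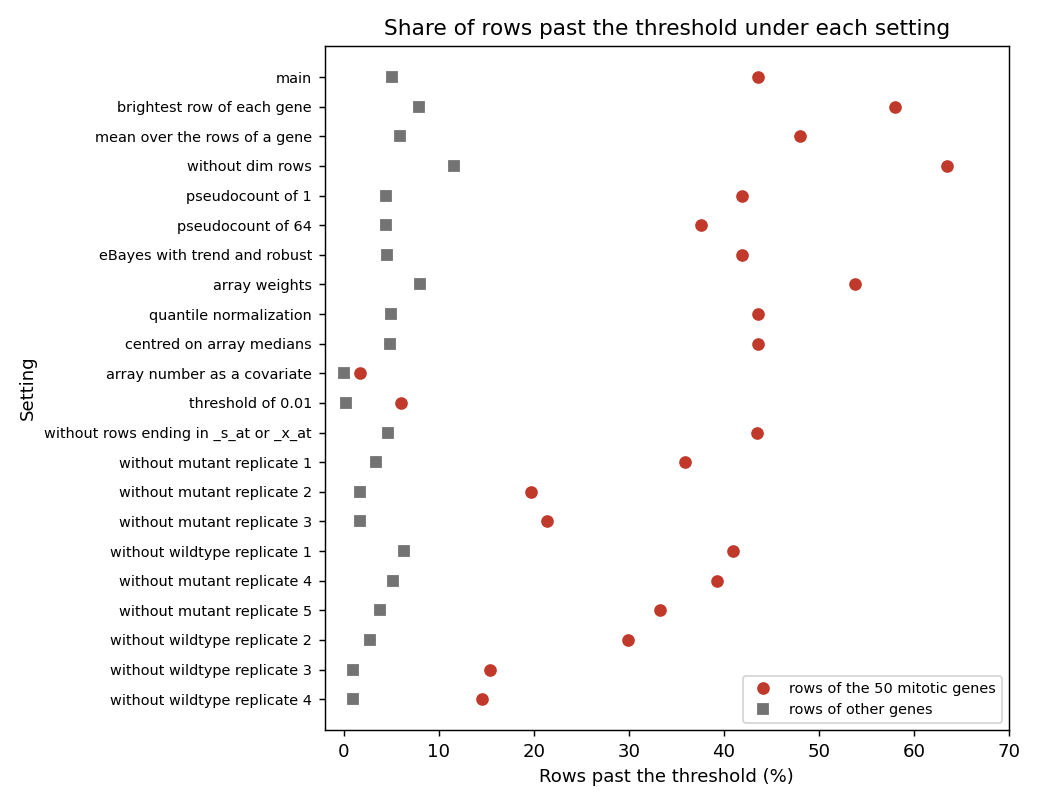
Share of rows with an adjusted p under the threshold (%, horizontal axis) for the 50 mitotic genes (red circles) and for other genes (grey squares) under each setting (vertical axis, main is the fit as reported). The mitotic share is 43.6% as reported, lowest with array number as a covariate (1.71%), and above the share of other genes in each setting shown.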

How the data were processed

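Whole-colon RNA of 5 mutant and 4 wildtype samples was hybridised to 1 array each. The deposited values are linear intensities, 1 per probe set, from Expression Console 1.1 (Affymetrix) according to the submitters' processing notes. How they were summarised and background-corrected is not given in the sources used here. Array medians lay between 53.8 and 54.7, so no further normalization was applied. Precision is limited by the number of arrays.

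The table held 45101 probe sets, and the 64 controls stayed out. Symbols came from the platform annotation, which gave 34945 rows 1 symbol, 932 several and 9160 none. Values were tested as log2(intensity + 16) by limma 3.58.1 under R 4.3.3 (two-sided, lmFit then eBayes, 7 residual and 2.26 prior degrees of freedom), without a filter on low values, so all 117 rows were tested. The Benjamini-Hochberg adjustment ran over 45037 rows. The fit was tested on simulated data. The members, steps and lists were chosen with earlier results of these data known. By rule, arrays are shown for the 2 rows with the smallest p in each of 5 steps. Promoters came from RefSeq (GRCm38.p6), and 9 genes matched no window. Alternatives are given in the closing section.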

Additional observations from a re-analysis of the deposited data

Results flagged for a closer look

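In the stronger Cenpe row, wildtype 1 lay at -0.48 and the other wildtypes between -1.09 and -1.2. Its gap to the nearest of them was 0.846 of the wildtype range, above Dixon's 95% value for 4 samples. It was the only such array among 22 groups examined, which were both groups in each of the 10 rows shown by array and in the medians over passed rows. Chance flags about 1 in 20 groups.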

How the results depend on the processing

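The mitotic count stayed within 1.5 times of 51 rows in 13 of 21 alternatives. With the brightest row of each gene it was 29 of 50 genes (other genes 7.96%), or 7 for kinetochore, 7 for motor, 4 for condensin and 5 for exit genes, and with the mean over the rows of a gene it was 24 of 50 (other genes 5.97%), or 4 for kinase, 4 for kinetochore, 6 for motor and 4 for condensin genes. These count genes instead of rows, and the shares were 58% and 48% of genes, against 43.6% of rows as reported. A mean can cancel rows of opposite sign, and the part of this in the count was not tested. The same sign was found in 7 of 17 pairs of passed rows of 1 mitotic gene, and in 48.8% of such pairs of other genes. With array number as a covariate it was 2 (other rows 0.0718%), or 1 for kinase, 0 for kinetochore, 0 for motor, 0 for condensin and 1 for exit rows. At a threshold of 0.01 it was 7 (other rows 0.247%), or 1, 1, 3, 0 and 2 in the same order of steps. Leaving out dim rows gave 13 of 17 condensin rows (other rows 11.6%), and leaving out _s_at and _x_at rows gave 8 of 28 kinetochore rows (other rows 4.67%). Leaving out each array in turn gave 17 to 48 rows in all (other rows 0.939% to 6.39%), 3 to 7 kinase, 4 to 13 kinetochore, 5 to 14 motor, 3 to 8 condensin and 2 to 7 exit rows. The median percentile was 94.9 with the brightest row, 90.7 with the covariate and 91.7 to 94.6 without each array. For the percentile, a move was judged against the SD over the leave-outs.

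Of the 10 rows shown by array, 9 lost their call with array number as a covariate (adjusted p from 0.0654 to 0.137) and kept it in the 16 other alternatives. The stronger Prc1 row kept it in all 17. No row changed sign in these alternatives. No paired analysis was possible because the labels used here give nothing that pairs a mutant with a wildtype sample. Since names are tied to rows by strength alone, and IDs may have been reordered against values before deposit, every statement on a single gene is uncertain.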
